A study of Mus musculus with 4 samples.

Results

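A total of 590 acetylated regions of mouse liver were at least 3 times wider 12 h after partial hepatectomy (PHx) than in sham-operated liver. They are part of 6164 pairs, each made of 1 region of the sham list and 1 region of the PHx list that overlapped each other by 1 bp or more and overlapped no further region of the opposite list. The 590 regions were chosen by the ratio of the widths itself, so the widths and ratios below describe the choice and are not a result of it. The whole lists held 11602 sham and 10170 PHx regions. Of the pairs, 9.57% reached the ratio of 3, and 89.0% were wider after PHx by any amount.

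The regions mark acetylation of histone H3 at lysine 27 (H3K27ac) in liver of C57/BL6J mice, mapped by CUT&Tag, in which an antibody guides a transposase that cuts and tags the DNA around the mark. Nuclei came from flash-frozen whole liver. Both groups were described as wild type, and no allele or drug is named; 2 libraries came from sham-operated mice, with no time after surgery on the labels, and 2 from mice 12 h after 70% hepatectomy. The series text speaks of 0 h for the sham liver, so hepatectomy and time after surgery cannot be told apart. Each group has 1 merged region list without signal, score or read count, so the sequencing depth is unknown, no width has a replicate error and no test between the groups was possible.

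H3K27ac is laid down by the acetyltransferases p300 and CBP and marks active promoters and enhancers. At an active gene the mark usually sits around the transcription start site and reaches into the first part of the gene, and long stretches of it are known at genes that define a cell type. After partial hepatectomy the remaining hepatocytes leave rest, pass an early phase of signalling through cytokines and growth factors and then enter the cell cycle, while the metabolic work of the liver goes on.

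The promoters of 6 of these genes are shown because they stand at both ends of the pattern described below. The first 3 had the largest gains inside the gene body and the last 3 the largest gains upstream, among protein-coding genes whose start site lay under both regions and for which RefSeq lists a single start. The sequences are the 250 bases before the RefSeq start on GRCm38.p6, read 5′ to 3′ on the strand of the gene, with each CG dinucleotide in capitals. They come from chr5:148552789-148553038 (Ubl3, minus strand), chr14:120275419-120275668 (Mbnl2, plus strand), chr17:78199998-78200247 (Crim1, plus strand), chr5:90890995-90891244 (Cxcl1, plus strand), chr9:58249787-58250036 (Pml, minus strand) and chr5:43868559-43868808 (Cd38, plus strand). These are GRCm38.p6 positions and are not comparable with the region positions below, which are on GRCm39.
Ubl3: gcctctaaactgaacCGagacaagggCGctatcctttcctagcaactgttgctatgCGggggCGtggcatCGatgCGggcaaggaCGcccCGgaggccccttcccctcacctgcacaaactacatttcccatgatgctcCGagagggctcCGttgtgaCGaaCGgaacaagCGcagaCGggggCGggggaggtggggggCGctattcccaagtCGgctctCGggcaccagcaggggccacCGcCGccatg
Mbnl2: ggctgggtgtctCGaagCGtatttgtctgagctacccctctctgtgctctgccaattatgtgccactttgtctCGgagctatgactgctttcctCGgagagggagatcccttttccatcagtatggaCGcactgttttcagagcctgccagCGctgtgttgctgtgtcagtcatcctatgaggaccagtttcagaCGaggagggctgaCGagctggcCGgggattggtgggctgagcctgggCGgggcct
Crim1: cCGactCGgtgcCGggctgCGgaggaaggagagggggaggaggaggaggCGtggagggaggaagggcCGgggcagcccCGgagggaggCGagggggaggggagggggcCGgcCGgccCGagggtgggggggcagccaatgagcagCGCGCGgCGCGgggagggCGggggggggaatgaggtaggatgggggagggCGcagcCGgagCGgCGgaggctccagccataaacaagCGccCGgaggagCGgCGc
Cxcl1: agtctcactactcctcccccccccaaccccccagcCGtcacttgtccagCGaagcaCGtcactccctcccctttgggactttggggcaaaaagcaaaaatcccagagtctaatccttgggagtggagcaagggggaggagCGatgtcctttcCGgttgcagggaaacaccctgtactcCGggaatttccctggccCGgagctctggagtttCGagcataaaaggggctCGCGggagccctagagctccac
Pml: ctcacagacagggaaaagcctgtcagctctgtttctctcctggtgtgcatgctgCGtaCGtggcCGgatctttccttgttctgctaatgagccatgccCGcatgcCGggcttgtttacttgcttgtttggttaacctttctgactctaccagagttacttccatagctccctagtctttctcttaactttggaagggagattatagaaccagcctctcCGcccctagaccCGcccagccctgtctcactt
Cd38: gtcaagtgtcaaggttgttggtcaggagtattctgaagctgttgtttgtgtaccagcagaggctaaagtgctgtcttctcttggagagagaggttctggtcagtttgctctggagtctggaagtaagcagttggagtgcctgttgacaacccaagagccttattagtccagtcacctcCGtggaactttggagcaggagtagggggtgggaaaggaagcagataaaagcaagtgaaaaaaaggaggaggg
The promoter of Ubl3, a ubiquitin-like protein, held 20 CG dinucleotides, that of Mbnl2, a splicing regulator, 10 and that of Crim1, a transmembrane protein that binds bone morphogenetic proteins, 25. The promoter of Cxcl1, a chemokine for neutrophils, held 10, that of Pml, the scaffold of PML nuclear bodies, 7 and that of Cd38, an NAD-consuming ectoenzyme, 1.

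The markers of hepatocytes were largely present in both lists. Of 6 hepatocyte markers, Alb, Apoa1, Ttr and Hnf4a had a region within 1000 bp of a listed start site in both lists, and Cps1 in the PHx list. A start site is listed only where a region of either list was assigned to the gene. A marker whose start site neither table lists could not be scored, which left out Serpina1a and all 4 neutrophil and monocyte and 4 lymphocyte markers. Others could be scored through 1 list alone, so the counts of covered markers are tied to this filter and no difference between the lists is read from them. Of 9 endothelial markers 6 could be scored, 5 covered in the PHx list and 1 in sham, and of 7 Kupffer cell and macrophage markers 5, of which 5 and 2 were covered. Of 7 stellate cell markers 2 could be scored, with 2 and 1 covered, and of 5 cholangiocyte markers Sox9, covered in both. Over all 10925 gene names with a listed start, 77.8% were covered in the PHx list and 68.7% in sham. Among names scored in this way coverage was thus higher after PHx in general. Among these markers of 7 cell types only Csf1r, the receptor of macrophage colony-stimulating factor, belonged to the regions at least 3 times wider. Whole liver was assayed, so more cells of a type and more acetylation per cell cannot be told apart. The part of a changed cell makeup in the widening was not tested.

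The strongly widened regions were narrow in sham. Their sham width ranged from 2187 to 19221 bp with a median of 5709 bp, against a median of 8163 bp over all pairs. After PHx their width ranged from 6758 to 70378 bp with a median of 23096.5 bp, against 13439.5 bp over all pairs. The median ratio was 3.71 (quartiles 3.30 and 4.63) and the median gained length was 17216.5 bp. Of the 1541 pairs with sham regions up to 6006.5 bp wide 21.9% reached the ratio, and of the 1541 pairs with the widest sham regions 0.909%. The 5 regions just inside the threshold were at Itpripl2, Rps26, Hivep1, Coro7 and Gm40423, with ratios of 3.001 to 3.007. The 5 pairs just outside were at Yap1, Gm11765, Gm30575, Cpn1 and Fam169b, with ratios of 2.998 to 2.993. Yap1, the transcriptional coactivator of the Hippo pathway, thus fell just short, with 9052 bp in sham and 27141 bp after PHx.

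**Figure D1:**
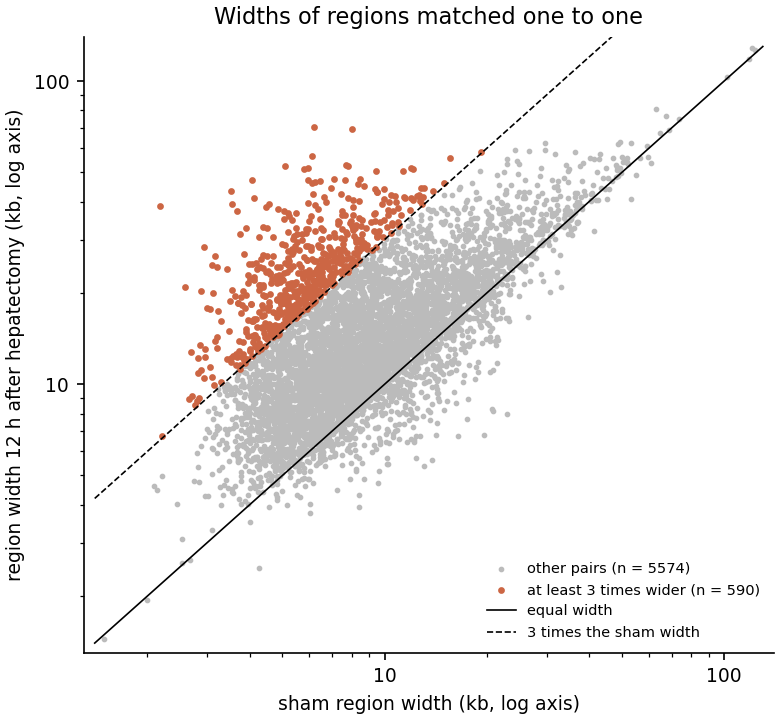
Width of each of the 6164 regions matched one to one, sham on the horizontal and 12 h after hepatectomy on the vertical axis, both logarithmic and in kb. The 590 coloured points lie on or above the dashed line at 3 times the sham width, and most of them have sham widths below the median of all pairs (8163 bp).

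The highest ratio belonged to Zfp618, a zinc finger gene, where a sham region of 2187 bp on chromosome 4 (62980461 to 62982647) became 38669 bp (62974550 to 63013218), a ratio of 17.7. The sham region lay in intron 3 of 16 of one Zfp618 transcript and the gain was 30571 bp downstream and 5911 bp upstream of it. The transcript assigned to the PHx region starts further on, so the whole gain lay upstream of that start. Gcnt2, an enzyme that branches glycan chains, measured 6196 bp in sham and reached 70378 bp after PHx, the largest gained length of all, 64182 bp. At Crim1 the widths were 3543 and 39337 bp. At Ada, adenosine deaminase, they were 5101 and 52286 bp. The PHx region of Ada covered its whole assigned transcript of 23669 bp and ran 24165 bp past its end.

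Among the other protein-coding genes of the 20 highest ratios, Rhobtb1 had 3674 and 37404 bp, a ratio of 10.2, and the synaptic scaffold gene Tanc1 had 4115 and 41131 bp. Cd38 had 5799 and 51423 bp, with gains on both sides of 25567 bp upstream and 20057 bp downstream. Pfkfb2, which sets the level of the glycolytic activator fructose 2,6-bisphosphate, had 3164 and 26454 bp, a ratio of 8.36. Bcr, a regulator of small GTPases, had 5928 and 47209 bp, a ratio of 7.96. The other 11 of the 20 highest ratios, 8.07 to 12.3, were assigned to noncoding genes or pseudogenes. At 6 of those 11 the sham row named another gene. Gm52741 (7989 and 69711 bp), whose sham row named Rgs3, Gm40208 (6099 and 56628 bp) and Gm35648 (5934 and 51574 bp) were among the 5 largest gained lengths, with Gcnt2 and Ada.

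By the annotation of the PHx row the widened regions were no more often promoters than other pairs. Promoters were 457 of 590, or 77.5% (exact Clopper-Pearson 95% interval 73.9 to 80.8%, counting error only), against 77.7% of the other pairs. By the sham row they were promoters less often, 375 of 590 or 63.6% (59.5 to 67.5%), against 75.1% of the other pairs. Introns made up 16.6% of the sham rows and 6.10% of the PHx rows, against 7.10% and 5.02% of the other pairs. Regions are not replicates and the intervals say nothing about animals.

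The sham and PHx shares differed through regions that lay off a promoter in sham and reached one after PHx. Of the 215 widened regions outside promoters in sham, 82 (38.1%) were promoter regions after PHx, against 159 of 1388 (11.5%) among the other pairs. How much of this follows from the width alone was not tested. The 82 had been intronic in 28 cases, exonic in 16, distal intergenic in 15, in a 3′ UTR in 13, in a 5′ UTR in 9 and downstream of a gene in 1. The intronic ones included Ada, Bcr, Akap13, an A-kinase anchoring protein (4491 and 32770 bp), Asap1, an Arf GTPase-activating protein (6464 and 46745 bp), and Sema6a, a transmembrane semaphorin (7804 and 52613 bp). At Asap1 31040 bp of the gain ran upstream, toward the start site, and 9241 bp downstream. At Akap13 it was 24108 and 4171 bp. The assigned gene also changed more often, being the same in both rows for 483 of 590 widened regions (81.9%) and for 94.8% of the other pairs. All 375 sham promoter regions stayed promoter regions, and among the other pairs nearly all did so too. Those pairs had 4186 promoter regions by the sham row and 4331 by the PHx row, 159 of the latter from outside promoters.

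**Figure D2:**
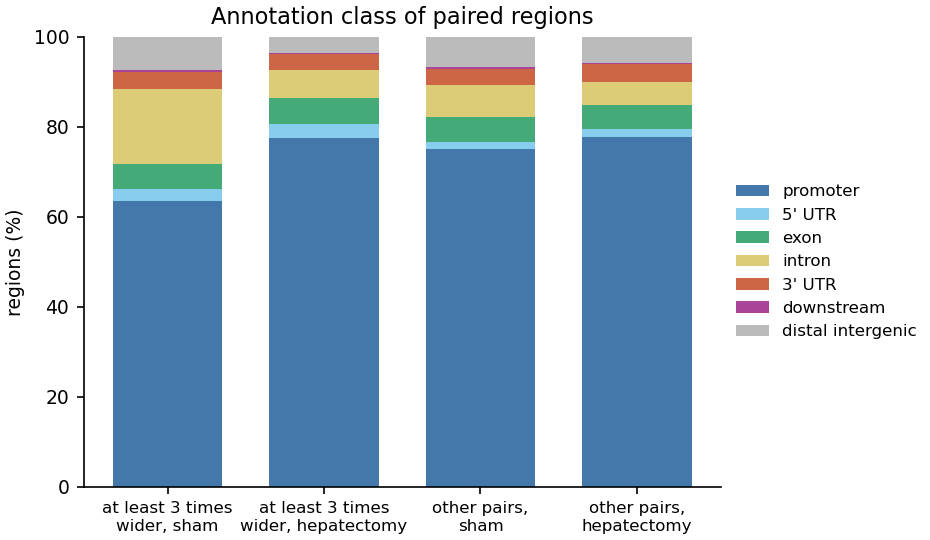
Share of regions (%) in each annotation class, by the sham and by the PHx row, for the 590 regions at least 3 times wider and for the 5574 other pairs. The promoter share of the widened regions is 63.6% by the sham row and 77.5% by the PHx row, whereas that of the other pairs is 75.1% and 77.7%.

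Over all 590 regions the gain had no strong side. Sides are given along the strand of the gene named in the PHx row: upstream is against the direction of transcription, and downstream is toward and through the gene body. The gain was larger downstream in 317 regions (53.7%), against 53.4% of the 4899 pairs that widened by less. Most regions grew both ways: 532 (90.2%) gained on both sides and 58 on one side only. Among the pairs that widened by less 71.5% gained on both sides. The sham region lay wholly inside the PHx region in 533 (90.3%), against 72.3% of the pairs that widened by less. How much of this follows from the ratio by which the regions were chosen was not tested. Of the 11.2 Mb gained in all, 42.2% lay upstream of the assigned start, 40.4% inside the assigned transcript and 17.5% past its end, against 43.9%, 37.9% and 18.3% in the pairs that widened by less. The downstream side was the larger in 14 of 19 regions of the 5′ UTR class, in 256 of 457 promoter regions and in 16 of 34 exon regions. It was the larger in 14 of 36 intron, 8 of 21 3′ UTR, 1 of 2 downstream and 8 of 21 distal intergenic regions. These counts have no share of other pairs beside them, so no contrast between classes is drawn.

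At promoters of protein-coding genes that were already marked in sham, the larger gain was more often downstream. The sham region covered the start site of the assigned protein-coding transcript in 178 widened regions, and in 135 of these (75.8%) the larger gain was downstream. Among the 2526 such pairs that widened by less it was downstream in 1457 (57.7%). The downstream gain had a median of 11022 bp (quartiles 5943.5 and 16225.5 bp) and the upstream gain one of 3271 bp (quartiles 840 and 7643 bp). The PHx region reached a median of 14011.5 bp past the start site, from 3009 bp in sham, and a median of 5492 bp before it, from 2179.5 bp. At least 80% of the gain was downstream in 81 of the 178 (45.5%) and upstream in 20 (11.2%). Among the pairs that widened by less these shares were 36.9% and 24.8%. Of the length gained in the 178 regions, 60.7% lay inside the assigned transcript, 30.6% upstream of it and 8.70% past its end, against 47.6%, 41.6% and 10.8% in the pairs that widened by less. Over all 244 widened regions with the sham region over the assigned start, whatever the biotype, 48.2% lay inside the transcript and 40.8% upstream of it.

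Genes of other biotypes, mostly noncoding and including 5 without a RefSeq match, had the larger gain upstream more often. The sham region covered the start site of such a gene in 66 widened regions, and the larger gain was downstream in 20 (30.3%), against 360 of 739 (48.7%) in the pairs that widened by less. The split by biotype was chosen after the values were seen. A long region names 1 gene of several, and that choice can depend on how far the region reaches. With the gene of the sham row, which the widening cannot affect, the downstream side was the larger in 175 of 259 protein-coding genes (67.6%) and in 29 of 81 others (35.8%), against 57.3% and 48.9% in the pairs that widened by less.

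**Figure D3:**
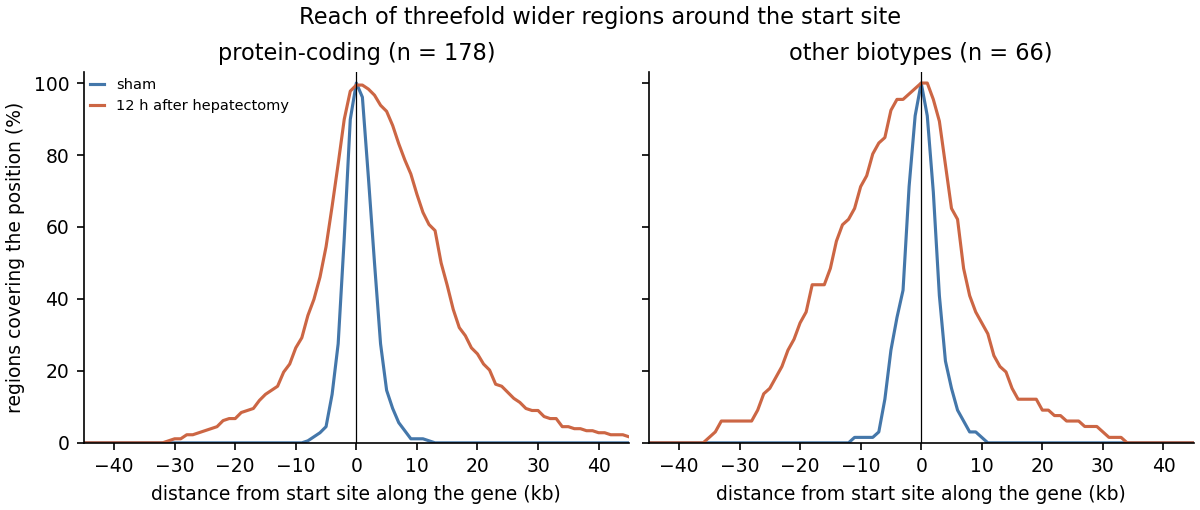
Share of regions (%) that covered each position, by distance in kb from the start site along the gene, in sham and 12 h after hepatectomy, for widened regions whose sham region covered the start. At 10 kb into protein-coding genes (left, n = 178) 69.1% of PHx regions and 1.12% of sham regions covered the position, and at 10 kb upstream 26.4% of PHx regions did; for other biotypes (right, n = 66) the PHx values are 33.3% and 71.2%.

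By transcript length the intervals of the downstream share overlapped, and the difference was not tested. Above the median transcript length of 32962 bp it was 74 of 89 (83.1%, interval 73.7 to 90.2%), and at or below it 61 of 89 (68.5%, 57.8 to 78.0%), whereas in pairs that widened by less it was 57.8% and 57.6%. It was 96 of 125 (76.8%) where every library gave exactly 1 peak to the region in both groups, and 107 of 140 (76.4%) where the sham width was at most 7068.5 bp. In the matching pairs that widened by less it was 58.4% and 59.3%. The median assigned protein-coding transcript was 37940 bp long for the 364 widened regions that named one, and 27883 bp over all pairs. Covering a whole transcript depends on the PHx width, which the choice of regions used, and the part of the width was not tested. The PHx region covered the whole assigned transcript in 75 of those 364 (20.6%), against 14.8% over all pairs. Among them were Enc1 (transcript of 11936 bp, region of 26850 bp after PHx), Fabp2, the intestinal fatty acid binding protein (4435 and 36012 bp), and Echdc2 (13876 and 23378 bp), 3 genes singled out after their values were seen.

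Among the 178 widened regions over a protein-coding start site, the 5 largest gene-body gains came with much smaller upstream gains. Regions that did not start from a marked start site could gain more, such as Gcnt2, with 52417 bp inside the transcript. At Ubl3 the sham region reached 7849 bp past the start site and the PHx region 46292 bp, while the upstream edge moved from 3480 to 4218 bp before it. At Mbnl2 the downstream edge moved from 7263 to 44505 bp and the upstream edge from 1064 to 1208 bp. Psd3, an exchange factor for Arf6, had downstream edges of 7955 and 45063 bp, Tanc1 of 2635 and 39047 bp, and the histone acetyltransferase gene Kat6b of 4830 and 37142 bp. In all 5 the upstream edge moved by at most 5139 bp, at Kat6b.

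The 5 largest upstream gains among the same 178 regions, 22617 to 28150 bp, were shorter than the 5 largest gene-body gains, 32312 to 38443 bp. At Cxcl1 the upstream edge moved from 3373 to 31523 bp before the start site and the downstream edge from 4102 to 4643 bp. Cxcl1 is short, 1877 bp, and its PHx region of 36167 bp covered it whole. At Pml the upstream edge moved from 1200 to 28492 bp. Cd38 had upstream edges of 2983 and 28550 bp. Ptpn2, a tyrosine phosphatase that damps JAK and STAT signalling, had 2480 and 26623 bp. At Grk5, a kinase of G protein-coupled receptors, the upstream edge moved from 2203 to 24820 bp while the downstream edge moved back, from 4972 to 1233 bp past the start.

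**Figure D4:**
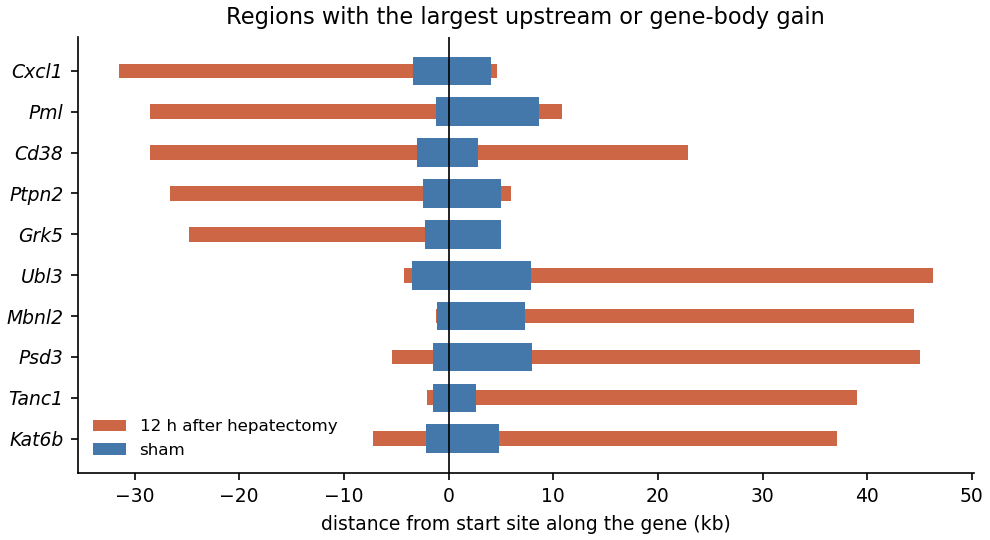
Extent of the sham region (thick bars) and the PHx region (thin bars) around the start site, in kb along the gene, for the 5 genes with the largest upstream gain and the 5 with the largest gain in the gene body, among the 178 widened regions whose sham region covered a protein-coding start site. The PHx region of Cxcl1 reaches 31523 bp upstream and that of Ubl3 46292 bp downstream.

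The promoters at which the sham region covered the start site were mostly rich in CG, as at other paired regions. Of the 178 protein-coding genes, 104 had a single start in the RefSeq table. A ratio of observed to expected CG of 0.6 or more was found in 74 of these (71.2%), against 78.0% of 1772 genes of the other pairs and 35.7% of all 22862 genes with a single start. The median was 24 CG in 300 bases (250 before to 50 after the start), against 23 and 7. Among the 75 genes whose larger gain was downstream the median was 25, and among the 29 with the larger gain upstream it was 19. Whether the RefSeq start is the one the region covers could not be checked across the builds.

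Short motifs were counted on both strands of the same 300 bases. The GC box GGGCGG was in 72.1% of the 104 promoters, 70.8% of those of the other pairs and 35.2% of all genes with a single start. The CCAAT box CCAAT was in 42.3%, 38.3% and 38.2%, and the TATA box TATAAA in 2.88%, 7.11% and 14.8%. The AP-1 motif TGANTCA was in 1.92%, 4.91% and 7.98%, and the CRE TGACGTCA, which differs from it by 1 further base in the middle, in 4.81%, 3.33% and 1.85%. TTCNNNGAA, the STAT motif, was in 9.62%, 6.83% and 8.49%, and TTGCNNAA, a C/EBP motif, in 5.77%, 7.96% and 10.8%. The lowest of these shares among the 104 rest on 2 to 6 promoters. Of the 6 promoters printed above, those of Ubl3, Mbnl2, Crim1 and Pml held a GC box, and those of Mbnl2 and Crim1 also a CCAAT box.

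Genes of 26 lists of liver biology were looked up among the widened regions. The lists hold 898 genes, of which 325 were named by 385 pairs, and 30 of these pairs (7.79%) were at least 3 times wider, beside 9.57% of all pairs. The lists were made with earlier results of these data known, and the counts of single lists are small.

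Glucose metabolism had 4 widened regions among 21 pairs. Beside Pfkfb2 they were at Pdk1, a kinase that shuts off pyruvate dehydrogenase (4379 and 17779 bp), at the glycolytic gene Gapdh (5139 and 18849 bp) and at Gbe1, the glycogen branching enzyme (4754 and 15694 bp). The gain was mostly upstream at Pdk1, with 10686 bp against 2714 bp downstream. The median ratio of the 21 pairs was 1.51, close to the 1.49 of all pairs.

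Growth factor and receptor genes had 3 among 16 pairs, at Fgfr2, a fibroblast growth factor receptor, and at 2 places in Ghr. The growth hormone receptor drives hepatic Igf1 expression. One Ghr region, at a 5′ UTR on chromosome 15, measured 13061 bp in sham (3475373 to 3488433) and 44304 bp after PHx (3452709 to 3497012). The other, in intron 1 of 10, measured 9494 bp and 30927 bp (3514080 to 3545006). The remaining Ghr pair, at the promoter, had 12567 and 19709 bp, a ratio of 1.57. The regions inside the gene, with 3.39 and 3.26, were chosen by this ratio, so no contrast with the promoter is drawn. Fgfr2 had 6566 and 21404 bp in an intron by its sham row.

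Chromatin genes had 4 among 35 pairs. Kat6b went from 6949 to 44400 bp and Brd2, a reader of acetylated histones, from 9679 to 34280 bp. The DNA methyltransferase genes Dnmt1 and Dnmt3b went from 5162 to 16805 bp and from 5255 to 17347 bp. All of the gain at Dnmt1, 12000 bp, was downstream, and 32312 bp of that at Kat6b, whereas at Brd2 17456 bp was upstream and 7145 bp downstream.

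Wnt and Hippo genes had 2 among 20 pairs, at Tcf7 and Lrp6, and TGF-beta family genes 1 among 5, at Smad5. Tcf7, a transcription factor that acts with beta-catenin, had 5960 bp at a 5′ UTR in sham and 39617 bp reaching a promoter after PHx. It gained 25180 bp upstream of the sham region. Of its whole gain 23891 bp lay inside the gene and 9766 bp before its start site. At Lrp6, a Wnt coreceptor, the widths were 6402 and 22822 bp, with all of the 16883 bp gain upstream of the sham region but still within the gene. Smad5, a transducer of bone morphogenetic protein signals, had 4125 and 22517 bp. Map3k3 was the only one of 18 pairs of the MAP kinase list, with 2816 and 10850 bp.

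Metabolic genes of the hepatocyte differed in where the widened region lay. Gldc, the glycine decarboxylase of the glycine cleavage system, had 4589 and 23356 bp, within the gene. The urea cycle and amino acid list had 2 of 20 pairs. The xenobiotic list had 2 of 21, Aox3, an aldehyde oxidase (4922 and 17292 bp, over exons of the neighbouring Aox1 and short of the Aox3 start), and Fmo5, a flavin monooxygenase (5206 and 18035 bp, with 12639 bp of the gain downstream). Acaca, which makes malonyl-CoA for fatty acid synthesis, was the 1 of 23 pairs of lipogenesis and cholesterol synthesis, with 8903 and 28741 bp and 18077 bp of the gain downstream. Foxo1, a transcription factor held back by insulin, was the 1 of 27 pairs of hepatocyte transcription factors and lay inside the gene, reaching its 3′ UTR after PHx, with 6231 and 19895 bp.

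Single regions stood for the other lists. Atf3, an AP-1 family gene of the early response, was the 1 of 9 immediate early pairs, with 7622 and 36270 bp and nearly equal gains of 14008 bp upstream and 14640 bp downstream. Wee1, a kinase that holds back CDK1, was the 1 of 5 G2/M pairs, with 7033 and 22684 bp. Csnk1d, a kinase of the clock protein PER, was the 1 of 9 clock pairs, with 15606 and 55821 bp, and 39912 of its 40215 bp gained were downstream. Mylk, myosin light chain kinase, had 8096 and 32864 bp as 1 of 3 stellate cell pairs, and Csf1r 9554 and 30957 bp as 1 of 5 Kupffer cell pairs. The sham region of Csf1r was assigned to Mir6983 and lay wholly downstream of the assigned Csf1r start site.

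Dock4, an exchange factor for Rac, was the 1 gene of the actin regulator list, with 3 of the 37 pairs, all in intron 1 of 50 on chromosome 12. After PHx they measured 34770 bp (40504598 to 40539367), 29204 bp (40545986 to 40575189) and 47341 bp (40592232 to 40639572), from 5333, 8703 and 7658 bp in sham. The Dock4 promoter region itself had 6538 and 9954 bp. After PHx it ended at 40503990, close to the start of the first intronic region at 40504598, so these widths depend on where the regions were parted. The ratios were 6.52, 3.36 and 6.18 inside the gene and 1.52 at the promoter. The regions inside the gene were chosen by this ratio, so no contrast with the promoter is drawn.

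No widened region was found among the 6 pairs of the IL-6, STAT3 and acute phase list, the 8 of G1/S and replication, the 12 of fatty acid oxidation, the 16 of bile acid genes, the 23 of plasma proteins, the 18 of stress and survival, the 12 endothelial, the 2 cholangiocyte or the 1 leukocyte pair. With 9.57% of all pairs at least 3 times wider, lists this small would hold few or none, so no absence is read from these counts. Plasma protein pairs had a median ratio of 1.33, bile acid pairs of 1.21 and fatty acid oxidation pairs of 1.16, below the 1.49 of all pairs. G1/S and replication pairs had a median of 1.66, cholangiocyte pairs of 1.65 and endothelial pairs of 1.61, above it, and the IL-6 and the stress lists had 1.32 and 1.31. Genes whose regions were joined from several sham regions after PHx form no pair and are not counted here.

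**Figure D5:**
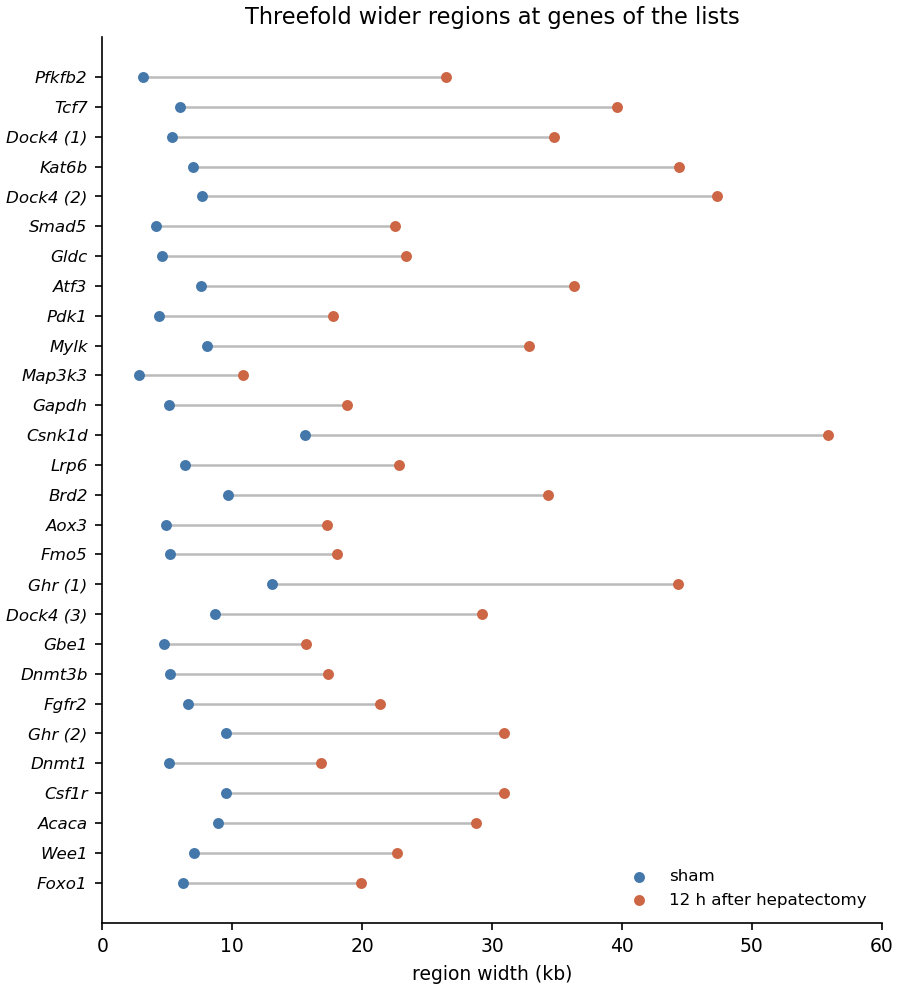
Region width in kb in sham and 12 h after hepatectomy for 28 widened regions at genes of the lists, ordered by ratio from Pfkfb2 (8.36) at the top to Foxo1 (3.19) at the bottom. Dock4 has 3 regions and Ghr 2, numbered by ratio, and Csnk1d is the widest in both groups (15606 and 55821 bp).

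Outside promoters the highest ratios were mostly assigned to unnamed genes, although some of these regions lay inside named genes. The region assigned to Gm10847 lay in intron 1 of 19 of Lrch1 and that of Gm36048 in intron 9 of 13 of Rad51b. That of 4930511A08Rik lay in intron 1 of 23 of Magi1. Of the 10 highest ratios outside the promoter class, 6 were assigned to noncoding genes or pseudogenes and the others to Zfp618, Trim2, Dock4 and Gramd3. Trim2, a ubiquitin ligase, had a distal sham region of 6101 bp and a PHx region of 46234 bp, all upstream of the gene and over an exon of 4930565D16Rik. Gramd3 had 4690 and 30485 bp within exons and introns of the gene. The widest distal ratio, 8.58, was nearest to Gm41704, with 4577 and 39281 bp and the gain running away from that gene, and the next, 7.39, was nearest to Gm20150, with 5057 and 37379 bp.

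How the libraries made up these regions differed from other pairs. In the PHx list, library 2 was broken into 2 or more peaks in 164 of the 590 (27.8%) and library 1 in 51 (8.64%), against 4.52% and 1.17% of the other pairs. In the sham list the widened regions almost always held 1 peak of each library, with 2 exceptions for library 1 and 1 for library 2, whereas these libraries were broken in 9.20% and 7.25% of the other pairs. Every library gave exactly 1 peak in both groups in 393 of the 590 (66.6%), against 82.7% of the other pairs. A region spans its peaks, so the number of peaks is tied to the widths by which the regions were chosen. How much of these differences follows from that choice was not tested.

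Sham peaks left out of the merged list were common near the widened regions. The tables number the peaks of each library along the genome, and a number missing between neighbouring listed regions marks a peak that was left out of the merged list. Around the sham region, up to its listed neighbours, both sham libraries had such numbers for 287 widened regions (48.6%) and neither had for 53 (8.98%), against 33.0% and 25.8% of the other pairs. The mean number was 2.82 per widened region and 2.01 over all pairs. The stretch between listed neighbours was not scaled for length. A wide PHx region that overlaps no second sham region needs distant sham neighbours, so the choice of regions itself bears on such counts. An unused number is placed in the stretch and not at the gained bases, and its part in the widening was not tested. Of the 1493 pairs without unused sham numbers 3.55% were at least 3 times wider. Among these 53 were Pfkfb2, the most strongly widened Dock4 region and Foxo1. At the start sites of protein-coding genes the downstream gain was the larger in 15 of the 18 widened regions without unused sham numbers (83.3%, interval 58.6 to 96.4%). Among such pairs that widened by less it was the larger in 359 of 633 (56.7%).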

How the data were processed

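H3K27ac CUT&Tag libraries (2 sham, 2 PHx) were used as 1 merged region table per group. Per the submitters' processing notes, Bowtie2, SEACR, ChIPseeker and DiffBind were used with GRCm39 (mm39); roles, versions and thresholds: not given in the sources used here. The deposited tables hold, per the file headers, starts, ends, widths and distances in bp with an annotation class and 1 gene per region; no signal is recorded, and a region spans the peaks of both libraries.

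Regions sharing 1 bp or more were paired when neither overlapped a second region (python 3.11.15, pandas 2.3.3), and pairs with a PHx to sham width ratio of 3 or more were kept; pairing and gains were checked on constructed regions. Gains were split by the strand and transcript in the PHx row. Intervals are exact Clopper-Pearson 95%, for counting error only. Biotypes came from a RefSeq table of GRCm38.p6, used for names only, which matched 574 of the 590 regions; promoter sequences came from RefSeq on the same build.

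The regions and the gene lists were chosen with earlier results of these data known, and the ontology terms, the split by biotype and the final set of 7 motifs (one for NF-kappaB was dropped) after values were seen. Named genes follow a rule, except for items that are not reported here: the 20 highest ratios, all genes of the lists, 5 on each side of the threshold, the 5 largest gained lengths, the 5 largest upstream and the 5 largest gene-body gains over a protein-coding start site, and the 10 highest ratios outside promoters. Genes given as examples of a class change, a covered transcript, a transcription factor family or several regions per gene fall outside it and were chosen after their values were seen. The labels do not say whether the replicates are separate animals.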

Additional observations from a re-analysis of the deposited data

How the results depend on the processing

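With a ratio of 2, 4 or 5 there were 1675, 226 or 115 regions in place of 590. There were 393 with 1 peak of every library, 393 with a sham width of at least 5000 bp and 53 without unused sham peak numbers. An overlap of at least 50% of the sham region gave 603, and a gain of at least 10000 bp 540. The promoter share of 77.5% was 81.0% at a ratio of 4, 73.8% with 1 peak of every library and 63.6% by the sham row. The downstream share of 53.7% was 58.3% at a ratio of 5, 63.5% where the sham region covered the assigned start site, and 60% where it covered that of the gene in the sham row, a setting chosen after seeing the data. The other alternatives for the downstream share gave 53.2 to 57.1%. Counting genes of either row put 39 regions in the lists in place of 30. No replicate could be left out and no other normalization tried, since the tables hold 1 merged list per group without values per library. No paired analysis was possible because the merged lists give no value per library. Depth, which limits where a weak region is called, is unknown.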

Other observations

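Of the 590 regions, 20 (3.39%) named a gene to which the authors' deposited table gives a transcription factor family, against 4.86% of the other pairs. Beside Zfp618, Tcf7, Smad5, Atf3 and Foxo1 they included Rere, a transcriptional corepressor (4187 and 25096 bp), Bach2, a bZIP repressor (6843 and 28275 bp), Crem, a cAMP-responsive factor (7688 and 24627 bp), Elf2, an ETS factor (5807 and 19651 bp), and Foxp1, a forkhead factor (8168 and 24891 bp). At Bach2 the gain of 22965 bp was all downstream. At Tfam, which packages mitochondrial DNA, the widths were small, 2768 and 8521 bp.

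By the gene ontology terms in the same table, 13 of 78 pairs at genes with guanyl-nucleotide exchange factor activity (16.7%) were at least 3 times wider, among them Bcr, Akap13, the 3 regions of Dock4 and Psd3. The share was 19 of 133 (14.3%) for protein serine/threonine kinase activity, 10 of 79 (12.7%) for GTPase activator activity, 10 of 92 (10.9%) for the actin cytoskeleton and 99 of 933 (10.6%) for the plasma membrane. It was 41 of 547 (7.50%) for the mitochondrion, 31 of 467 (6.64%) for the endoplasmic reticulum, 114 of 1508 (7.56%) for the nucleus and 8.74% over the 4037 pairs whose gene has any term. Genes belong to several terms, the 12 terms were picked after the members were known, and no test was made.

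Besides Dock4 and Ghr, 4 protein-coding genes held 2 widened regions each. At Lims1, an adaptor of integrin signalling, they had ratios of 5.96 and 6.95, and the facing sides took the gain: the first ran 21588 bp downstream and the second 26011 bp upstream. Sgms1, a sphingomyelin synthase, had ratios of 3.54 and 3.90, Ago2, the slicer of RNA interference, 3.16 and 3.48, and Gas7 3.13 and 3.23.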
